A study of Mus musculus with 24 samples.

Results

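Oxidative phosphorylation is carried out in the inner mitochondrial membrane by 5 complexes, most of whose subunits are encoded in the nucleus and imported into mitochondria as proteins. The genes described here are the nuclear-encoded subunits of those complexes, chosen by symbol alone: every gene in the table whose symbol begins with Ndufa, Ndufb, Ndufc, Ndufs or Ndufv and a number, with Uqcr, Cox4i or Atp5, or with Cox5 to Cox8 followed by a, b or c, together with Sdha, Sdhb, Sdhc and Sdhd, and without pseudogene symbols. The rule took 86 of the 22429 genes in the table. Of these, 36 belong to complex I, 4 to complex II, 8 to complex III, 20 to complex IV and 18 to complex V. Ndufa4 and Ndufa4l2 carry complex I names and were placed with complex IV, where Ndufa4 is now known to reside. A total of 78 members passed the filter on low counts and were tested.

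Ribosome footprints, the mRNA fragments covered by ribosomes, were sequenced from the livers of male F1 hybrid C57BL6J/FVBN mice. The 6 groups had 4 libraries each. They were Ercc1 d/- mutants at 16 weeks on 30% dietary restriction, ad libitum fed Ercc1 d/- mutants aged 16 or 7 weeks, ad libitum fed Ercc1 +/+ wild types aged 104 weeks, and Ercc1 +/+ wild types at 16 weeks on 30% dietary restriction or on ad libitum food. The product of Ercc1 is part of a nuclease that repairs DNA, and a truncated allele opposite a null allele is present throughout the body of the mutants, so effects on the liver and from other organs are not separated. Restriction began at week 7 with 10% and reached 30% from week 9 onward, and on the day the livers were collected no food was given beforehand. The mRNA libraries of the same livers were not used here, so a footprint difference is not divided into mRNA level and translation per mRNA.

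Libraries held 13366558 to 27084259 counts. Ercc1 had 1 to 15 counts in the 12 mutant libraries and 34 to 110 in the 12 wild-type libraries, so no library went against its labelled genotype. The hepatocyte marker Alb, the gene of serum albumin, took 13.6 to 17.4% of the counts in restricted mutants and 14.2 to 18.6% in restricted wild types, against 4.68 to 10.7% over all fed groups. Levels are therefore given as CPM, counts scaled to a common library size that was adjusted by the trimmed mean of M values (TMM), which sets aside genes with extreme differences. The members together took 0.951 to 1.77% of a library's counts. Beside Cox6b2 and Cox7a1, each of the other 76 tested members had at least 214 counts in every library. Within a group of 4, the median coefficient of variation between libraries was 8.2 to 13.9% for members, against 14.9 to 28.5% for all tested genes. The members were not matched for count with the other genes, and counting error widens the spread of genes with low counts.

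Complex I (NADH dehydrogenase) and complex II (succinate dehydrogenase) feed electrons into the membrane, complex III passes them to cytochrome c, and complex IV (cytochrome c oxidase) hands them to oxygen. Complexes I, III and IV pump protons on the way, and complex V (ATP synthase) uses the returning protons to make ATP. In the liver this supplies gluconeogenesis, urea synthesis and fatty acid handling. The factors NRF1, ERR alpha, YY1 and the ETS-family factor GABP are known for binding promoters of these genes, and the coactivator PGC-1 alpha for stimulating them.

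For display, 4 members whose footprints changed were picked, all of which hold an NRF1 match, as a minority of members do. Where a gene had several promoters, as Atp5c1 with 2, the one with the most NRF1 matches was taken. Promoters of these 4 members, and of Cox7a1, which had the largest restriction response, are shown so that the NRF1 and ERR letters can be read in place. They are from RefSeq, build GRCm38.p6, and each runs from 250 bases before to 50 bases after the annotated start, 5′ to 3′ on the gene's strand, with NRF1 matches (GCGCA, any base, then GCGC) and ERR half-site matches (AAGGTCA) of either strand in capitals. Atp5c1 lies at chr2:10080383-10080682 on the minus strand, Atp5h at chr11:115419870-115420169 on the minus strand, Sdhd at chr9:50603800-50604099 on the minus strand, Ndufb4 at chr16:37654319-37654618 on the minus strand, and Cox7a1 at chr7:30183921-30184220 on the plus strand.
Atp5c1: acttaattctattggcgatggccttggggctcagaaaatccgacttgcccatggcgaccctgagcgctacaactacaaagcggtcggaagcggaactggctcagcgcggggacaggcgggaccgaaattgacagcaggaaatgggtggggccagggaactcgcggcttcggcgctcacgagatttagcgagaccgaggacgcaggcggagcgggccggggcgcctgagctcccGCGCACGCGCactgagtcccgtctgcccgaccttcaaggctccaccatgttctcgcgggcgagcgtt
Atp5h: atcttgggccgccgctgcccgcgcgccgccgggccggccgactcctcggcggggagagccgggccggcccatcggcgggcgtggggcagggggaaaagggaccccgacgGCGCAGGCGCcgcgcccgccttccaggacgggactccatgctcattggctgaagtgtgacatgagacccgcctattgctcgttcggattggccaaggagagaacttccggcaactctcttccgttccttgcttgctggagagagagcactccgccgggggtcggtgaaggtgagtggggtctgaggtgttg
Sdhd: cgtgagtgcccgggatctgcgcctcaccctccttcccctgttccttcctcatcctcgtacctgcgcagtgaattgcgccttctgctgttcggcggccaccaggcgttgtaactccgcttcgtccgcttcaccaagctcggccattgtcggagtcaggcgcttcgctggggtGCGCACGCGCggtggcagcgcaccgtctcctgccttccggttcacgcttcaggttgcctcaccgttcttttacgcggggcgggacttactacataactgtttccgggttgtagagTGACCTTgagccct
Ndufb4: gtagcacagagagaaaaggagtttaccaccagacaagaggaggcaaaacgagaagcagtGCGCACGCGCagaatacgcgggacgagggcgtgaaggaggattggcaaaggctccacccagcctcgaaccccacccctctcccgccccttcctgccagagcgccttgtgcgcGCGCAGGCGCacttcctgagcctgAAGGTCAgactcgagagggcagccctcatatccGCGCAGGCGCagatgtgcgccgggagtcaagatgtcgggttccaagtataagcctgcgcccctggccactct
Cox7a1: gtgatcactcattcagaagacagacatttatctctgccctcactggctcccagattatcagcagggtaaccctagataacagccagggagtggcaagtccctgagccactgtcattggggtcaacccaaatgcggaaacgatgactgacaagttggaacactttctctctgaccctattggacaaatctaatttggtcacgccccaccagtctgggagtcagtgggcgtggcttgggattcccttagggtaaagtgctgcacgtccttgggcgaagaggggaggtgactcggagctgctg

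Such letters were found in a minority of members. A gene was counted when any of its promoters held a match. Of 68 members with a promoter in the RefSeq table, 17 (25%) held an NRF1 match. So did 5.19% of all genes with a promoter there and 11.2% of the other tested genes among them. The ERR half-site was found in 8 members (11.8%), against 5.38% of all these genes and 4.2% of the other tested genes. YY1 letters (AANATGGC) stood in 17 members (25%), of which 12 were in complex I, against 6.96% of all these genes and 9.91% of the other tested genes. ETS letters (CCGGAAG) stood in 17 members (25%), against 9.93% of all these genes and 19.8% of the other tested genes. The motifs were searched on both strands and none contains another. The 17 members with an NRF1 match and the 49 tested members without one had nearly the same median log2 change in each main comparison, for example 0.27 and 0.29 in restricted mutants over fed mutants, and -0.25 and -0.28 in old over young wild types. In restricted over fed mutants, 6 of the 17 with a match and 19 of the 49 without one had an adjusted p under 0.05. These counts were 0 of 17 and 11 of 49 in restricted mutants over restricted wild types. They were 0 and 3 in fed mutants over fed wild types, 3 and 3 in old over young wild types, and 2 and 5 in restricted over fed wild types. The difference between members with and without a match was not tested.

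Summed over the 78 tested members, footprints were most abundant in the 2 restricted groups and least abundant in old wild types. The sum was 14960, 14906, 14044 and 16479 CPM in restricted mutants, against 12447, 12274, 11684 and 11625 CPM in fed mutants of the same age. It was 11756, 11158, 10591 and 10340 CPM in old wild types, against 13558, 12279, 13076 and 13457 CPM in young fed wild types. In both pairs the lowest library of the higher group lay above the highest library of the lower group. Restricted wild types had 14379, 15475, 13387 and 15395 CPM, which overlapped the young fed wild types by 1 library, and fed mutants at 7 weeks had 13437, 12773, 13043 and 11988 CPM, which overlapped fed mutants at 16 weeks. The 5 complexes moved together: in restricted mutants every complex had a sum above all 4 fed mutants, such as 5688 to 6765 against 4544 to 4877 CPM for complex V and 1475 to 1719 against 1180 to 1261 CPM for complex III. In old wild types each of the 5 sums lay below all 4 young libraries, such as 2576 to 2892 against 3048 to 3348 CPM for complex I. With bulk tissue, fewer cells of a type and less RNA per cell cannot be told apart.

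**Figure D1:**
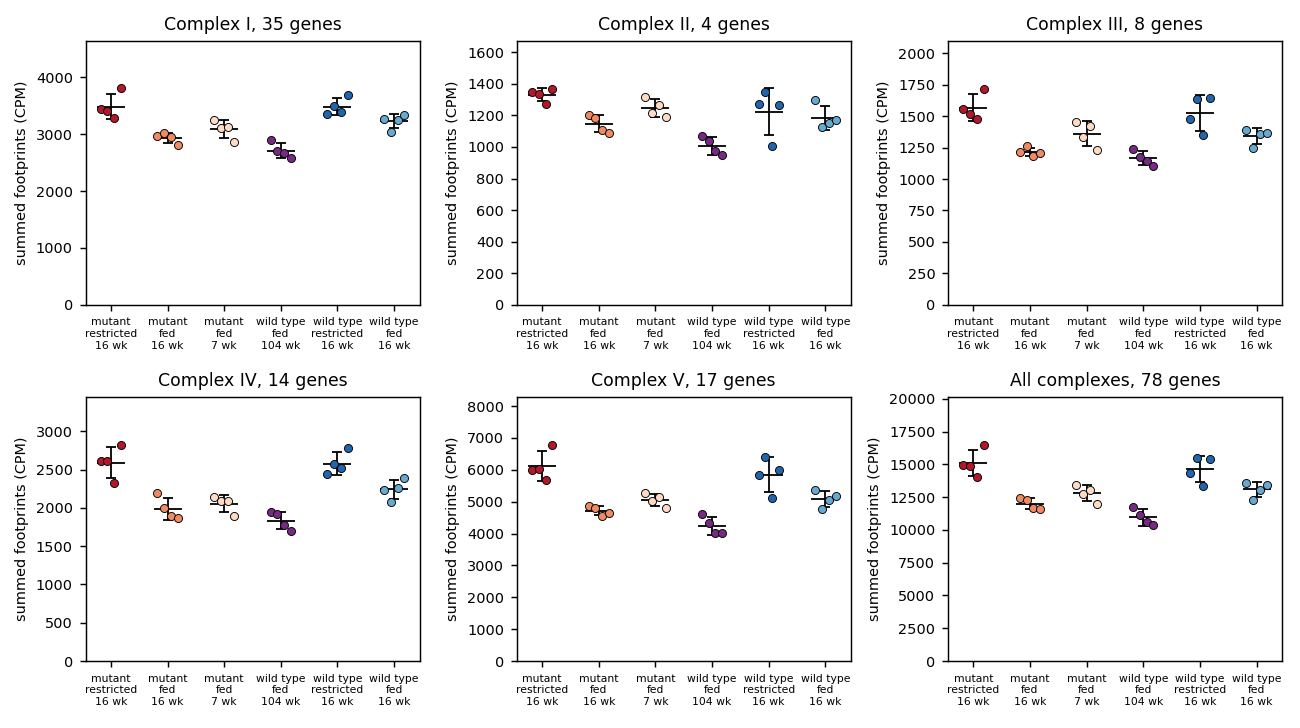
Summed footprints (CPM, axes from 0) of the tested members of each complex and of all complexes, by group; points are the 4 libraries, horizontal bars the mean and whiskers 1 SD. Restricted mutants sit above fed mutants and old wild types below young fed wild types in each panel.

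Dietary restriction raised 32 of the 78 tested members in the mutants and lowered none. An adjusted p under 0.05 in edgeR's quasi-likelihood test, adjusted over all 12211 genes tested, is the threshold throughout. Of all genes tested, 5.59% rose and 6.04% fell in this comparison, so the members' share of 41% stood well above the background of rises. The median log2 change was 0.29 for members and 0.0019 for all genes tested, and 68 members were above 0. By complex, the calls were 11 of 35 in complex I, 0 of 4 in complex II, 6 of 8 in complex III, 9 of 14 in complex IV and 6 of 17 in complex V. In 39 members every restricted library was above every fed library, which held for 8.43% of all genes tested, and 1 member, Atp5e, had every restricted library below, which held for 9.03%.

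The catalytic head of ATP synthase was among the clearest changes. Atp5b, the catalytic beta subunit and the most heavily counted member, had 1711, 1728, 1601 and 1903 CPM in restricted mutants, against 1187, 1184, 1120 and 1141 CPM in fed mutants. The groups did not overlap, and the log2 change was 0.58 ± 0.11 (SE, adjusted p = 0.000711). Atp5c1, the gamma subunit that turns inside the head, had 305, 295, 294 and 354 CPM in restricted mutants, against 196, 199, 204 and 197 CPM in fed mutants. Its lowest restricted library was far above the highest fed one, with a log2 change of 0.65 ± 0.12 (adjusted p = 0.00037). Atp5a1, the alpha subunit, rose by 0.41 ± 0.12 (adjusted p = 0.0223). In the stalk that holds the head still, Atp5h (subunit d) had 261, 256, 254 and 328 CPM in restricted mutants, against 217, 189, 183 and 183 CPM in fed mutants, and rose by 0.51 ± 0.11 (adjusted p = 0.00254), while Atp5o (the oligomycin-sensitivity protein) rose by 0.35 ± 0.11 (adjusted p = 0.046). Among the other tested members of complex V only Atp5l passed, at 0.39 ± 0.13, and none of the 3 genes of the proton-carrying c ring did.

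In complex IV, the accessory subunit Cox7c had 168, 147, 146 and 224 CPM in restricted mutants, against 103, 94.6, 85.7 and 113 CPM in fed mutants. One restricted library, replicate 4, was well above the other 3, and the log2 change was 0.79 ± 0.15 (adjusted p = 0.000679) with all libraries and 0.64 without that one. Cox7b had 264, 233, 225 and 284 CPM in restricted mutants, against 198, 148, 144 and 162 CPM in fed mutants, a change of 0.63 ± 0.15 (adjusted p = 0.00588). Cox4i1, the general form of the largest nuclear-encoded subunit of this complex, had 368, 336, 298 and 366 CPM in restricted mutants, against 268, 247, 254 and 234 CPM in fed mutants (0.45 ± 0.11, adjusted p = 0.00777). Both groups of values were apart for each of these 3 genes. Cox6c, Cox5a, Cox6a1, Cox5b and Cox7a2l also rose, by 0.34 to 0.60. Cox5b has a pseudogene in the table, Cox5b-ps, with 1002 to 3007 counts per library, and its call was lost when the reads of both were added (0.32, adjusted p = 0.0712).

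Complex III had the largest share of members called. Uqcrfs1, the iron-sulfur protein of the electron path, had 278, 242, 293 and 359 CPM in restricted mutants, against 198, 206, 194 and 216 CPM in fed mutants (0.53 ± 0.12, adjusted p = 0.00456). Uqcrc2, a core protein, had 331, 326, 320 and 367 CPM in restricted mutants, against 253, 257, 224 and 247 CPM in fed mutants (0.45 ± 0.11, adjusted p = 0.00581). Neither gene overlapped between diets. Uqcrh, Uqcrb, Uqcr10 and Uqcrc1 rose by 0.34 to 0.58, whereas the small subunit Uqcrq had a log2 change of -0.18 that did not pass.

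In complex I, Ndufv1, the subunit that accepts electrons from NADH, had 235, 228, 213 and 267 CPM in restricted mutants, against 161, 170, 164 and 159 CPM in fed mutants (0.53 ± 0.11, adjusted p = 0.00282). Ndufc2, in the membrane arm, had 77.2, 75.1, 81.1 and 99.1 CPM in restricted mutants, against 51.3, 58.9, 51.2 and 53.5 CPM in fed mutants (0.63 ± 0.13, adjusted p = 0.0014). Restricted libraries were above all fed libraries for both. Ndufb9 rose by 0.49 ± 0.12 (adjusted p = 0.00619) and Ndufa6 by 0.57 ± 0.14 (adjusted p = 0.00694), and Ndufa12, Ndufb10, Ndufb5, Ndufc1, Ndufs4 and Ndufb8 rose by 0.34 to 0.48. The count of 32 fell to 15 without restricted mutant replicate 4, to 21 without restricted mutant replicate 2, and to 19 without either fed mutant replicate 3 or 4, with no member called lower in any of these fits.

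**Figure D2:**
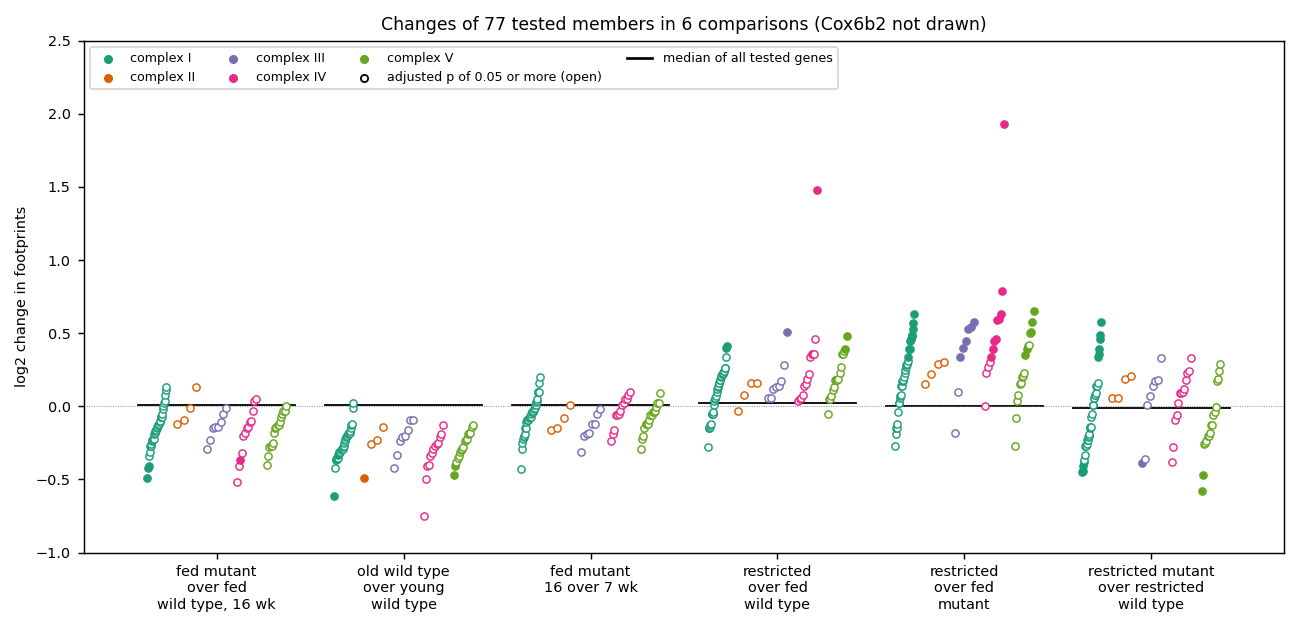
Log2 change of each tested member (points, coloured by complex, filled where adjusted p was under 0.05) in 6 comparisons, each named as upper over lower group; black lines are the median of all tested genes and Cox6b2 is not drawn. The points lie mostly above the line in restricted over fed mutants and nearly all below it in old over young wild types.

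In wild types, restriction raised 8 members and lowered none, against 5.44% of all genes tested rising and 6.71% falling. The members' share was 10.3%, their median log2 change was 0.16 and 66 were above 0, with 0.02 for all genes tested. Atp5h had 295, 365, 321 and 315 CPM in restricted wild types, against 245, 215, 241 and 231 CPM in fed wild types. The groups were apart, with a log2 change of 0.48 ± 0.11 (adjusted p = 0.00483). Uqcrh, the hinge protein of complex III, had 142, 214, 147 and 178 CPM in restricted wild types, against 140, 120, 115 and 101 CPM in fed wild types (0.51 ± 0.15, adjusted p = 0.0204). Ndufs7, a core subunit that holds the last iron-sulfur cluster before ubiquinone, had 92.4, 106, 103 and 94.9 CPM in restricted wild types, against 73.7, 70.0, 78.5 and 76.8 CPM in fed wild types (0.41 ± 0.11, adjusted p = 0.0172). Atp5o, Cox4i1, Atp5b and Ndufb5 rose by 0.36 to 0.40, and Cox7a1 is described below. The count of 8 was 5 without restricted wild-type replicate 4 or fed replicate 1, and 4 without fed replicate 2 or 3. It was 3 with no filter on low counts (Cox7a1, Atp5h and Uqcrh) and 1, Cox7a1, with only these groups in the fit, where the changes of the other 7 were 0.37 to 0.52. Markers of other cells moved in this comparison too. Stellate cell markers were called higher for 3 of 6 (median log2 change 0.68), with sums of 308 to 602 CPM in restricted wild types and 202 to 304 CPM in fed wild types, and macrophage markers for 2 of 10 (median 0.48), with sums of 288 to 458 CPM in restricted wild types and 248 to 292 CPM in fed wild types. B and plasma cell markers were called higher for 2 of 3 tested, with sums of 2.62 to 30.8 CPM in restricted wild types and 1.4 to 4.23 CPM in fed wild types, and endothelial markers for 1 of 5. Their part in the member changes was not tested.

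The restriction responses of mutants and wild types come from separate animals throughout. Of the members called, 7 were called in both genotypes (Atp5b, Atp5h, Atp5o, Cox4i1, Cox7a1, Ndufb5 and Uqcrh), which is 21.9% of the mutant list and 87.5% of the wild-type list. Ndufs7 was called in wild types and not in mutants. Among the 78 members, 59 had changes above 0 in both genotypes, and for 59 the value in mutants was the larger. The difference between the responses was tested as an interaction, in which no member passed in edgeR and 1 passed in DESeq2. Of all genes tested, 0.516% were called higher and 0.287% lower in edgeR. An unadjusted p under 0.05 was found for 10 of 78 members, of which 9 were larger in mutants. It was found for a similar share of all genes tested, 1552 of 12211, of which 826 were larger in mutants. The median of the difference was 0.14 for members and -0.02 for all genes tested. The lowest adjusted p was that of Cox7c, with 0.74 ± 0.21 (adjusted p = 0.0903). Its level in wild types was 149, 127, 133 and 136 CPM under restriction and 110, 115, 162 and 138 CPM when fed, which overlapped.

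**Figure D3:**
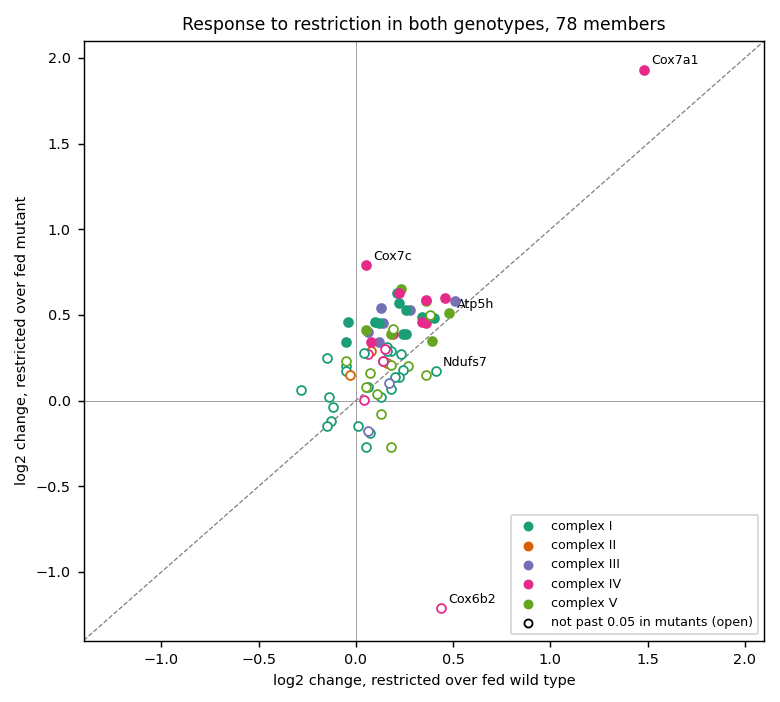
Log2 change of each tested member under restriction in mutants (vertical) against that in wild types (horizontal), coloured by complex and filled where the mutant change had an adjusted p under 0.05; the dashed line marks equal changes. Of the 78 points, 59 lie above the dashed line and Cox7a1 stands far to the upper right.

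Cox7a1, the heart and skeletal muscle form of subunit VIIa of cytochrome c oxidase, had the largest rise under restriction among members in both genotypes, at a low level. It had 5.06, 6.38, 6.57 and 6.11 CPM in restricted mutants, against 1.78, 1.9, 1.09 and 1.56 CPM in fed mutants. The restricted values were all above the fed ones, a 3.8-fold difference (log2 1.93 ± 0.33, adjusted p = 0.000261). In wild types it had 7.33, 3.03, 5.04 and 4.85 CPM under restriction, against 2.35, 1.41, 1.6 and 1.9 CPM when fed, a 2.79-fold difference (log2 1.48 ± 0.33, adjusted p = 0.00366). These levels rest on 56 to 224 counts per restricted library and 20 to 60 per fed library at 16 weeks. Both calls held in each fit without 1 library. The liver form of the same subunit, Cox7a2, had 124, 123, 117 and 122 CPM in restricted mutants, against 106, 99, 106 and 93 CPM in fed mutants, a change of 0.27 that did not pass (adjusted p = 0.141).

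Markers of striated muscle and fat were examined beside Cox7a1. Of 7 muscle markers, Ckm, Myh4, Myh6, Tnnt3 and Myl1 had 0 to 0.485 CPM in all 24 libraries, Actn2 had 0.142 to 1.74 CPM, and Acta1, which shares much of its sequence with the actins of other cells, had 54.2 to 126 CPM. The sum of the 7 was 68.5 to 126 CPM in restricted mutants, 84.5 to 101 CPM in fed mutants, 54.9 to 74.8 CPM in restricted wild types and 67.8 to 76.1 CPM in fed wild types. The 4 adipocyte markers (Adipoq, Plin1, Ucp1 and Retn) were at 0 in all 4 restricted mutants and summed to at most 0.574 CPM in restricted wild types. The cholangiocyte markers summed to 5.76 to 41.9 CPM in restricted mutants and 3.57 to 5.58 CPM in fed mutants, and their part in the member changes was not tested.

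**Figure D4:**
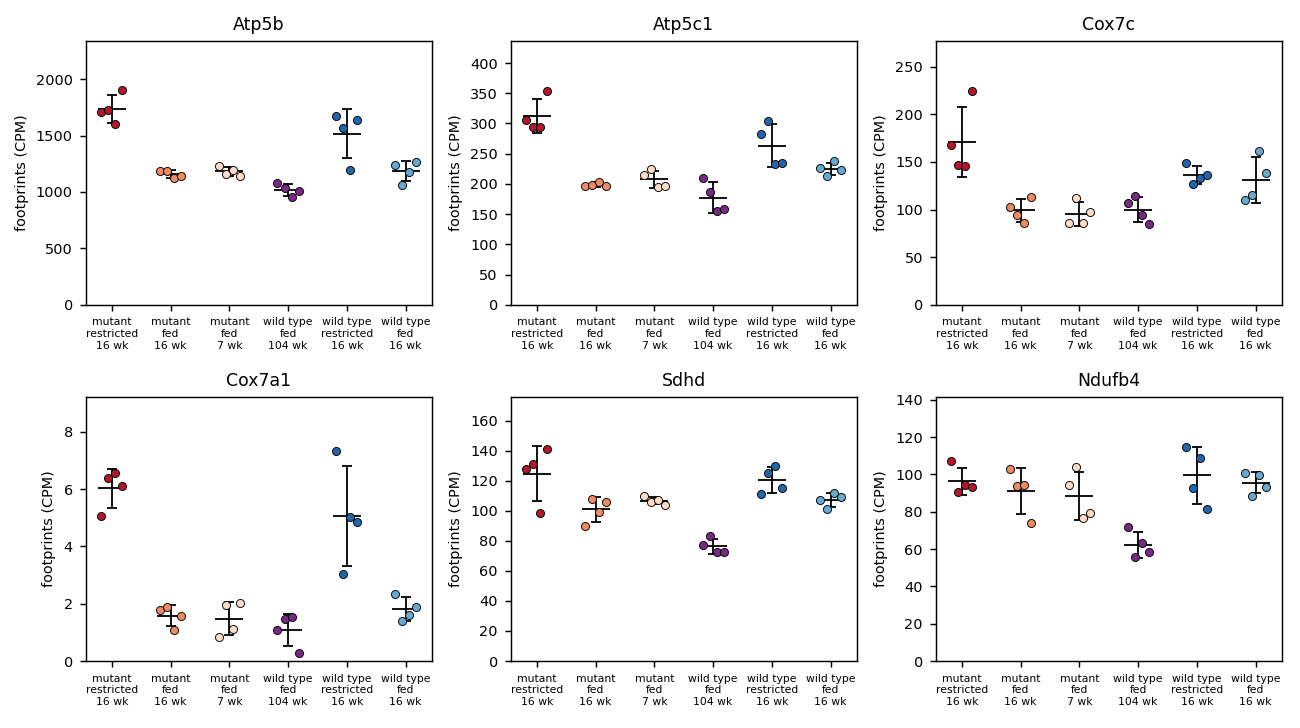
Footprints (CPM, axes from 0) of 6 members by group; points are the 4 libraries, horizontal bars the mean and whiskers 1 SD. Atp5b, Atp5c1, Cox7c and Cox7a1 are higher in restricted than in fed mutants, and Sdhd and Ndufb4 are lower in old than in young fed wild types.

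Restricted mutants and restricted wild types had nearly the same total of these footprints, with a median log2 change of 0.01 for members and -0.01 for all genes tested. Single members differed in both directions: 6 were higher in the mutants and 7 lower, against 9.38% and 8.85% of all genes tested, so the shares of 7.69% and 8.97% were close to the background. With library sizes alone in place of TMM, which shifted the median of all genes by about 0.11 on the log2 scale here, the split was 9 higher and 1 lower. Of the 13 members called, 10 were in complex I, and its core subunits were found on both sides. Ndufs3 had 147, 142, 153 and 169 CPM in restricted mutants, against 120, 123, 107 and 125 CPM in restricted wild types (0.36 ± 0.11, adjusted p = 0.0186). Ndufs8, which carries a pair of iron-sulfur clusters, had 54.8, 57.9, 50.3 and 61.4 CPM in restricted mutants, against 67.9, 73.5, 72.6 and 84.1 CPM in restricted wild types (-0.41 ± 0.10, adjusted p = 0.00356). The genotypes did not overlap for either. Ndufs1, the largest core subunit, was higher in mutants (0.39 ± 0.12, adjusted p = 0.0254) and Ndufs7 lower (-0.38 ± 0.11, adjusted p = 0.0183).

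Among the supernumerary subunits of complex I, which surround the core, Ndufc1 had 59.4, 74.8, 54.2 and 67.4 CPM in restricted mutants, against 43.3, 39.8, 50.4 and 36.9 CPM in restricted wild types (0.58 ± 0.14, adjusted p = 0.00358). Ndufa12, Ndufc2 and Ndufb10 were higher by 0.34 to 0.49. Ndufa3 had 55.3, 55.3, 56.9 and 56.0 CPM in restricted mutants, against 62.0, 77.4, 80.6 and 85.8 CPM in restricted wild types (-0.45 ± 0.12, adjusted p = 0.00883), and Ndufb7 had a change of -0.44 ± 0.13 with overlapping groups. Among the members called outside complex I the largest difference was in Atp5e, the epsilon subunit of the rotor of ATP synthase. It had 138, 136, 135 and 143 CPM in restricted mutants, against 167, 215, 238 and 209 CPM in restricted wild types (-0.58 ± 0.11, adjusted p = 0.000719), so that each mutant was below each wild type. Atp5g1, one of the c ring genes, and Uqcrq were lower by 0.47 and 0.39 on the log2 scale, with adjusted p values of 0.0196 and 0.0385. Without 1 library at a time, 9 to 16 members were called. With only these groups in the fit 1 was called, Atp5e (-0.60, adjusted p = 0.0392), and the other 12 calls were lost, with changes between -0.48 and 0.57. Macrophage markers were called higher in restricted mutants for 5 of 10 (median log2 change 0.48), with sums of 485 to 623 CPM in restricted mutants and 288 to 458 CPM in restricted wild types. Stellate cell markers were called higher for 2 of 6 (median 0.32), and 3 of 8 hepatocyte markers were called lower (median -0.31), with sums of 152903 to 198373 CPM in restricted mutants and 172167 to 244746 CPM in restricted wild types. Neutrophil markers were called higher for 1 of 3 tested, cholangiocyte markers for 1 of 4 and striated muscle markers for 1 of 2 tested. Of 5 endothelial markers, 1 was called higher and 1 lower. The part of these markers in the member changes was not tested.

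**Figure D5:**
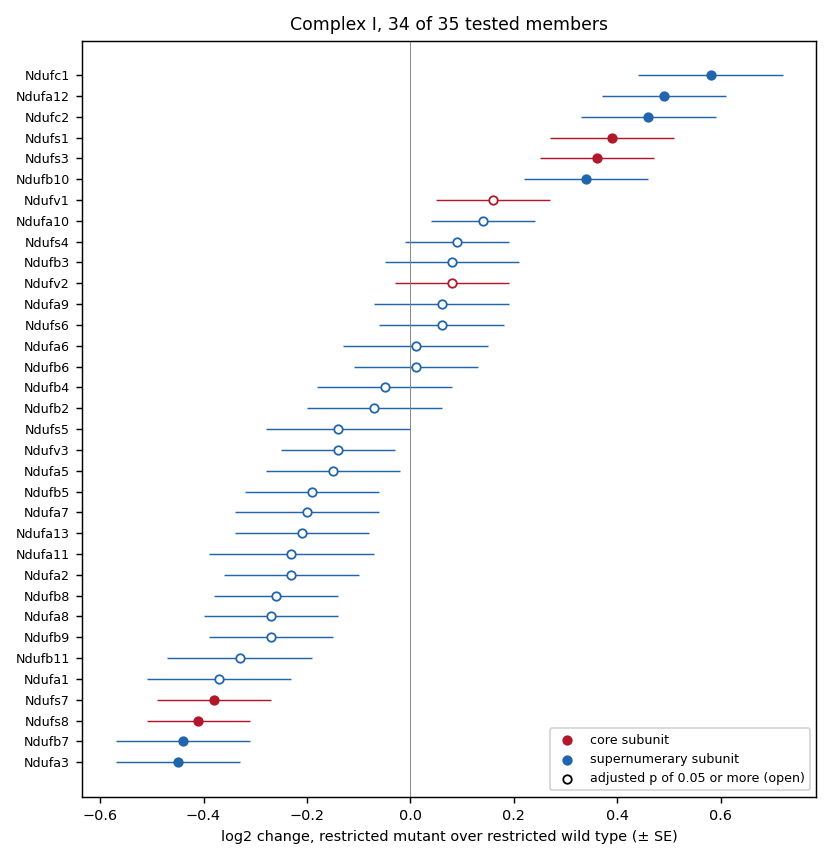
Log2 change of the 35 tested members of complex I in restricted mutants over restricted wild types, ordered by size, with 1 SE either side and 1 member not drawn; core subunits are red, supernumerary subunits blue, and filled points had an adjusted p under 0.05. The 6 members called higher and the 4 called lower each include 2 core subunits.

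Fed ad libitum, mutants at 16 weeks had slightly lower footprints of most members than wild types of that age. The median log2 change was -0.14, with 0.01 for all genes tested, and 67 of 78 members were below 0. Few differences passed: 4 members were lower and 1 higher, against 5.04% and 5.69% of all genes tested. Ndufb9 had 111, 122, 126 and 110 CPM in fed mutants, against 156, 153, 158 and 161 CPM in fed wild types, with no overlap (-0.42 ± 0.12, adjusted p = 0.0196). Ndufa1, a small membrane-arm subunit, had 46.8, 43.5, 43.3 and 57.7 CPM in fed mutants, against 62.4, 62.8, 75.2 and 68.7 CPM in fed wild types (-0.49 ± 0.14, adjusted p = 0.0204). Cox4i1 had 268, 247, 254 and 234 CPM in fed mutants, against 299, 287, 348 and 363 CPM in fed wild types (-0.37 ± 0.11, adjusted p = 0.0289), and Ndufb8 had a change of -0.41 ± 0.12 (adjusted p = 0.0265) with overlapping groups. All 5 calls were lost without fed wild-type replicate 4. The count was 1 without mutant replicate 1 or wild-type replicate 3, 2 without mutant replicate 2, 3 or 4, 3 without wild-type replicate 1, and 10 with only these 2 groups in the fit.

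The member called higher was Cox6b2, the form of subunit VIb known from testis and sperm. It had 4.76, 6.96, 0.711 and 4.42 CPM in fed mutants, against 0.313, 0.245, 0.36 and 0 CPM in fed wild types. The mutants varied widely, and a similar spread of 7.02, 5.48, 0.198 and 0.268 CPM was seen in fed mutants at 7 weeks and of 0.378, 0.567, 3.4 and 2.92 CPM in restricted mutants. The counts behind these values were 3 to 140 per mutant library and at most 10 per wild-type library, and all 4 old wild types had 0. In the smallest of all 24 libraries by raw total, a young fed wild type, a count of 0 allows up to 0.224 CPM (3 counts, without TMM, counting error only). The fitted change was 4.01 ± 1.10 (adjusted p = 0.0266) and depended on single libraries, since 6 of the 8 fits without 1 library did not call it. The general form, Cox6b1, had 275, 249, 231 and 233 CPM in fed mutants, against 293, 239, 261 and 306 CPM in fed wild types, which overlapped.

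Macrophage markers moved with genotype and age in the same libraries. All 10 (C1qa, C1qb, C1qc, Cd5l, Clec4f, Vsig4, Mpeg1, Csf1r, Adgre1 and Marco) were called higher in fed mutants than in fed wild types, with a median log2 change of 1.05, and their sum was 481 to 636 CPM in fed mutants, against 248 to 292 CPM in fed wild types. Of the same 10, 8 were called higher in old than in young wild types, where the sum was 384 to 504 CPM. None was called by edgeR in restricted over fed mutants, with a median of -0.06 and a sum of 485 to 623 CPM in restricted mutants. Of other markers in that comparison, 2 of 5 endothelial, 1 of 4 cholangiocyte and 1 of 8 hepatocyte markers were called higher. Called lower were 2 of 8 hepatocyte and 1 of 5 red blood cell markers. The sum of the hepatocyte markers was 103080 to 142743 CPM in fed mutants and 90420 to 164841 CPM in old wild types, against 146234 to 156746 CPM in young fed wild types. This sum was mostly Alb, with a median of 101486 CPM over all libraries, followed by Serpina1a with 20590 CPM. Of the 8 markers, 1 was called lower and none higher in fed mutants over fed wild types (median log2 change -0.37). With age, 1 was called higher and 2 lower (median -0.01). Stellate cell markers were called higher for 3 of 6 in fed mutants (median 0.62), with sums of 337 to 451 CPM in fed mutants and 202 to 304 CPM in fed wild types. Neutrophil markers were called higher for 2 of 3 tested in fed mutants over fed wild types (median 2.79) and for 2 of 3 with age (median 3.89). B and plasma cell markers were called higher for 1 of 3 tested in fed mutants over fed wild types and for 3 of 3 with age. Cholangiocyte markers were called higher for 1 of 4 with age. The part of these shifts in the member changes was not tested.

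In old wild types 77 of 78 members had a log2 change below 0 relative to young ones, with a median of -0.26 for members and 0.01 for all genes tested. Of these, 6 passed and all were lower, against 4.59% of all genes tested falling and 4.75% rising. An unadjusted p under 0.05 was found for 41 members, all lower, and for 2838 of all 12211 genes tested, 1347 of them lower. DESeq2 called 16, all lower, and 3 were called with library sizes alone, with no filter on low counts or with the replicate number as a block. In 27 members every old library lay below every young one, as in 8.98% of all genes tested. Ndufb4, a membrane-arm subunit of complex I, had 71.8, 55.9, 63.5 and 58.4 CPM in old wild types, against 101, 88.7, 99.6 and 93.3 CPM in young ones, a log2 change of -0.61 ± 0.13 (adjusted p = 0.00371). Sdhd, which anchors succinate dehydrogenase in the membrane, had 76.9, 83, 72.3 and 72.8 CPM in old wild types, against 107, 101, 112 and 109 CPM in young ones (-0.49 ± 0.11, adjusted p = 0.00479). For both genes old and young were clearly apart, and these 2 calls held in each fit without 1 library.

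The other 4 were Atp5k and Atp5j2, small membrane subunits of ATP synthase, and Ndufs4 and Ndufa10 of complex I. Atp5k had 67.7, 67.8, 74.1 and 54.7 CPM in old wild types, against 95.1, 88.7, 92.5 and 88.6 CPM in young ones (-0.47 ± 0.13, adjusted p = 0.0204). Atp5j2 had a change of -0.41 ± 0.13, Ndufs4 one of -0.33 ± 0.10 and Ndufa10 one of -0.31 ± 0.10, with adjusted p values of 0.0424, 0.0433 and 0.0436. Leaving out old replicate 1 gave 12 calls. Leaving out old replicate 4, young replicate 1 or young replicate 3 gave 2, and leaving out young replicate 4 gave 3. B and plasma cell markers also differed, with sums of 34.8 to 83 CPM in old wild types and 1.4 to 4.23 CPM in young ones.

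Fed mutants at 16 weeks were close to fed mutants at 7 weeks. No member passed in edgeR or in DESeq2, and 0.246% of all genes tested rose and 0.188% fell in edgeR. An unadjusted p under 0.05 was found for 7 of 78 members, all lower at 16 weeks. It was found for a similar share of all genes tested, 1168 of 12211, of which 535 were lower. The median log2 change was -0.06 for members and 0.01 for all genes tested, and with library sizes alone the medians were 0.05 and 0.11. Ndufb3 had 48.8, 60.8, 59.3 and 47.3 CPM at 16 weeks, against 79.9, 74.9, 75 and 60.7 CPM at 7 weeks, with a change of -0.43 ± 0.13 (adjusted p = 0.188). Uqcrc1 had 220, 250, 236 and 209 CPM at 16 weeks, against 293, 275, 302 and 263 CPM at 7 weeks, without overlap (-0.31 ± 0.11, adjusted p = 0.314). The change of Ndufs7 was -0.29 ± 0.11 (adjusted p = 0.357).

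Beside Cox7a1 and Cox6b2, other tissue-specific forms of complex IV had few or no counts. Cox4i2 had at most 6 counts, the muscle forms Cox6a2 and Cox8b at most 6, and Cox7b2, known from testis, at most 1 count in any library. The testis form Cox8c was at 0 in all 24 libraries. Ndufa4l2, a hypoxia-induced relative of Ndufa4, had 0 to 12 counts. These members, together with Ndufb11b (at most 8 counts) and a second identifier of Atp5o with 0 counts, make up the 8 that were not tested. The 3 c ring genes encode identical mature proteins. Atp5g1 was called lower in restricted mutants than in restricted wild types (-0.47 ± 0.14), and Atp5g2 and Atp5g3 had changes of -0.13 ± 0.19 and 0.17 ± 0.13 that did not pass, with the difference between the genes not tested. Atp5g2 had 160, 182, 140 and 170 CPM in restricted mutants, against 89.6, 86.5, 142 and 144 CPM in fed mutants, with an adjusted p of 0.0861.

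Genes that act beside the complexes were counted in the same fits. Of 50 tested assembly factors, 1 rose and 5 fell in restricted over fed mutants, against 5.59% and 6.04% of all genes tested, with a median log2 change of -0.14. Coa3, needed for early assembly of complex IV, had 11.1, 10.5, 11.7 and 11.6 CPM in restricted mutants, against 13.5, 19.9, 21.3 and 15.1 CPM in fed mutants (-0.64 ± 0.15, adjusted p = 0.00575). Uqcc2 (complex III assembly), Cox19, Coa6 and Cox15 also fell. Of these, the call of Uqcc2 held in all 8 fits without 1 library, that of Cox19 was lost in 4 of 8 and those of Coa6 and Cox15 in 6 of 8. Cox10, a heme A synthesis enzyme, rose by 0.98 ± 0.26 (adjusted p = 0.0126, and 0.0574 without restricted mutant replicate 2). In restricted over fed wild types 1 assembly factor rose (Sco2) and 3 fell (Cox19, Acad9 and Ndufaf2), with a median of -0.08. These counts lay near or below the 5.44% and 6.71% of all genes tested, and Sco2 was lost in 7 of 8 fits without 1 library and Acad9 and Ndufaf2 in 5 of 8 each. In old over young wild types the median was -0.18 and 1 fell, Coa6 (-0.97 ± 0.24, adjusted p = 0.0117), against 4.59% of all genes tested.

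Of 13 citrate cycle genes, 5 rose and none fell in restricted over fed mutants, against 5.59% and 6.04% of all genes tested. Their median was 0.28. Mdh2, mitochondrial malate dehydrogenase, had 387, 363, 375 and 392 CPM in restricted mutants, against 217, 246, 228 and 211 CPM in fed mutants (0.75 ± 0.10, adjusted p = 5.75e-06). Idh3a, Fh1 and Ogdh also rose, of which Ogdh was lost without restricted mutant replicate 1. In wild types Mdh2 and Idh3a rose, against 5.44% of all genes tested, and the median was 0.004. In restricted mutants over restricted wild types 6 of the 13 were higher and none lower, against 9.38% and 8.85% of all genes tested. In old over young wild types 5 fell and none rose, against 4.59% and 4.75%. Among them Suclg2 (-0.51 ± 0.12) held in all 8 fits without 1 library, while Dlst was lost in 3, Suclg1 in 4 and Idh3a in 5 of 8. Of 21 tested import and outer membrane genes, 4 rose in restricted over fed mutants (Vdac1, Vdac2, Timm44 and Timm17a) and none fell, against 5.59% and 6.04% of all genes tested. The calls of Vdac1 and Vdac2 held in all 8 fits without 1 library, and those of Timm44 and Timm17a were lost in 5 and 4 of 8, with adjusted p values of up to 0.0938 and 0.112.

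Among 19 tested regulators of mitochondrial biogenesis, Ppargc1a, which encodes PGC-1 alpha, and Esrra, which encodes ERR alpha, were called higher in restricted over fed mutants. None was called lower, and of all genes tested 5.59% rose and 6.04% fell. Esrra had 16.2, 13.6, 14.5 and 13.1 CPM in restricted mutants, against 7.1, 9.17, 10.2 and 9.07 CPM in fed mutants (0.69 ± 0.20, adjusted p = 0.0254), a call lost in 4 of 8 fits without 1 library, with changes of 0.60 to 0.76. Ppargc1a had 47.1, 10.7, 4.87 and 4.79 CPM in restricted mutants, against 3.55, 3.64, 2.35 and 4.55 CPM in fed mutants. Replicate 1 of the restricted mutants was far above the rest, and the change of 2.25 ± 0.57 (adjusted p = 0.0126) became 0.94 (adjusted p = 0.105) without it. In wild types Ppargc1a had 6.09, 16.9, 4.11 and 9.1 CPM under restriction, against 3.68, 4.04, 3.16 and 1.99 CPM when fed, without overlap. That change of 1.47 ± 0.57 did not pass (adjusted p = 0.0978). The difference between the genotypes' responses in Ppargc1a did not pass either (0.79 ± 0.79, adjusted p = 0.743). In restricted wild types Esrra rose by 0.77 ± 0.20 (adjusted p = 0.0127, and 0.0755 without restricted wild-type replicate 1), Pprc1, a relative of PGC-1 alpha, rose by 1.00 ± 0.33 (adjusted p = 0.0492, lost in 6 of 8 fits without 1 library), and Ppara, a lipid-sensing receptor, fell by 0.89 on the log2 scale (adjusted p = 0.00667). Tfam, which maintains and transcribes mitochondrial DNA, had 19.2, 16.4, 10.7 and 14.7 CPM in old wild types, against 20.2, 23.5, 20.5 and 20.9 CPM in young ones (-0.48 ± 0.15, adjusted p = 0.0425), and 7 of 8 fits without 1 library did not call it. Pprc1 had 18.9, 20.7, 22.6 and 9.05 CPM in old wild types, against 8.38, 6.86, 8.16 and 8.36 CPM in young ones (1.16 ± 0.33, adjusted p = 0.0272), and its call was likewise lost in 7 of 8 fits.

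Atpif1, which blocks ATP synthase from running backwards, was higher in fed mutants, with 13.6, 15.2, 13 and 12.1 CPM, against 7.44, 6.13, 9.32 and 6.7 CPM in fed wild types (0.86 ± 0.18, adjusted p = 0.00223). Etfdh, which delivers electrons from fatty acid oxidation to ubiquinone, had 153, 138, 140 and 147 CPM in old wild types, against 236, 200, 223 and 219 CPM in young ones (-0.60 ± 0.11, adjusted p = 0.000909). Neither gene overlapped between its groups. Etfdh was also lower in fed mutants than in fed wild types (-0.44 ± 0.11, adjusted p = 0.0111). Of the 6 tested genes of this list, Etfa rose and Etfb fell in restricted over fed mutants, against 5.59% and 6.04% of all genes tested. In restricted mutants over restricted wild types Atpif1 was higher and Etfb lower, against 9.38% and 8.85%. The 13 subunits encoded in mitochondrial DNA had sums that varied strongly between libraries: 11398, 4930, 2781 and 2679 CPM in restricted mutants, 4281, 1510, 2930 and 2019 CPM in fed mutants, and 1557, 2357, 664 and 521 CPM in old wild types, against 4306, 4375, 2712 and 1178 CPM in young fed wild types. None was called by edgeR in any comparison. In old over young wild types their median log2 change was -1.29, with 12 of 13 at an unadjusted p under 0.05 and 1 called lower by DESeq2. In restricted over fed mutants the median was 1.02, with 4 at an unadjusted p under 0.05 and none called by DESeq2. Of all 12211 genes tested, 2838 with age and 3108 in restricted over fed mutants had an unadjusted p under 0.05.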

How the data were processed

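Ribosome footprints of 24 liver libraries were analysed from the gene table. Its values are raw read counts per gene and library, as deposited, with no normalization. The submitters' processing notes name Bowtie2 2.4.2 and STAR (2.7.8a, 2.7.0f) among aligners, cutadapt 3.4 and Trimmomatic 0.39 among trimmers, and Subread 1.6.4 with featureCounts. Not given in the sources used here were each tool's role, the use of strand and how reads matching several genes were counted, so the 27 members with an overlapping gene in RefSeq and members with near-identical copies are uncertain one by one. The deposited table of open reading frames names no genes and was not used. Library totals were 13366558 to 27084259 counts.

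Members and gene lists were chosen with earlier results of these data known. Counts were fitted in R 4.3.3 with edgeR 4.0.16: genes kept by filterByExpr over the 6 groups (12211 of 22429), TMM scaling, a robust quasi-likelihood model of the 24 libraries (1 term for each group) with 18 residual degrees of freedom, and 2-sided F tests with Benjamini-Hochberg adjustment over all genes tested. The standard error is the size of the log2 change divided by the square root of F. Replicates are labelled as separate samples, 4 per group. Where the labels do not state separate animals, p-values measure only the spread between these samples. Named members were those with an adjusted p under 0.05, up to 12 in each direction by smallest p, the 3 smallest unadjusted p where fewer than 3 passed, and the isoforms of a shared subunit. Of the other lists, up to 4 genes in each direction were eligible by the same threshold, and not all are given. Cox19, Coa6, Cox15, Ogdh and the genes of other short counts were named after their values were seen, to complete a count of 5 or fewer. The part of the rule on levels per codon could not be applied, because the table's gene length is the genomic span, so levels are not compared between genes beyond how heavily Atp5b was counted. The deviations of same-numbered replicates from their group means had correlations of -0.186 to 0.25. In some pairs of groups the same-numbered library was the closest match and in others it was not. Whether the numbers mark a shared batch is therefore not known, and the main fit took the libraries as unpaired. Alternatives were DESeq2 1.42.0, other size factors, no filter on low counts, fewer groups in the fit, a replicate block, leaving out each library, and, chosen after seeing the data, the reads of Cox5b-ps added to Cox5b. The fit was tested on simulated data. Values of some single genes are not reported here.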

Additional observations from a re-analysis of the deposited data

Results flagged for a closer look

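In groups of 4, the 41 named members, the summed CPM of each of the 5 complexes and that of all tested members were searched for a library far from the other 3. Of 282 groups of 4 values, 10 were found, fewer than the 1 in 20 that chance gives. In restricted mutants, replicate 4 had 328 CPM of Atp5h, with 254 to 261 CPM in the other 3, and 160 CPM of Atp5o, with 137 to 139 CPM in the others. In fed mutants at 16 weeks, replicate 1 had 217 CPM of Atp5h (others 183 to 189), 89.9 CPM of Ndufa12 (others 77.3 to 77.8) and 55.6 CPM of Ndufc1 (others 42 to 44), and replicate 3 had 70.2 CPM of Ndufb5 (others 59.9 to 61.5). In old wild types, replicate 2 had 62.8 CPM of Ndufs8 (others 65 to 65.5) and 256 CPM of Uqcrc2 (others 218 to 221). In restricted wild types, replicate 1 had 84.8 CPM of Ndufa12 (others 77 to 77.6). In young fed wild types, replicate 2 had 180 CPM of Uqcrfs1 (others 227 to 234).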

How the results depend on the processing

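No named member changed the sign of its log2 change under any alternative run. In restricted mutants over restricted wild types the balance of calls turned, with 6 higher and 7 lower under TMM and 9 higher and 1 lower with library sizes alone. Of 782 alternative values of named members, 625 kept their side of the threshold, 156 lost it and 1 gained it. In fed mutants over fed wild types 5 members were called, and 2 with library sizes alone or with no filter on low counts, and 10 with only these groups in the fit. In old over young wild types 6 were called, 16 by DESeq2, and 3 with library sizes alone or with no filter. In restricted over fed wild types 8 were called, 3 with no filter and 1 with only these groups. In restricted mutants over restricted wild types 13 were called and 1 with only these groups. For the interaction DESeq2 called 1. Without 1 library at a time the counts were 0 to 4 in fed mutants over fed wild types, 2 to 12 with age, 4 to 12 and 15 to 29 under restriction in wild types and mutants, 9 to 16 between restricted genotypes, and 0 to 0 for mutant age and the interaction. Library sizes alone shifted the median of all genes to 0.11 in fed mutants over fed wild types, where members had -0.03, and the members' distance from all genes was -0.14, as against -0.15 with TMM. With the replicate number as a block 3 members were called with age, and the other counts stayed within 1.5 times. The cause of these shifts was not tested. Levels per 100 codons were not run, because no coding length was at hand.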
